A study of Mus musculus with 30 samples.

Results

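The goblet cell mucus genes described here are Muc2, Fcgbp, Zg16, Clca1, Tff3, Spink4, Agr2, Spdef and Muc13, found by gene name in a table of 47069 genes. All 9 members were found, and all 9 passed the low-count filter in duodenum, where 13884 genes were tested. The study sequenced poly-A RNA from duodenum and liver of C57BL/6 mice on a fructose, a dextrose or a corn starch control diet, with 5 libraries in each of 6 groups. Dextrose is D-glucose and starch is a polymer of glucose, so the sugar groups differ, as labelled, in the simple sugar of the diet. The labels used here give no age, sex, sugar dose or length of feeding, and do not say whether each library came from its own mouse, so a p-value here reflects variation among these libraries, which may be technical.

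Goblet cells are the secretory cells that make the mucus gel of the intestine. The gel mucin is built in the endoplasmic reticulum, is covered with O-linked sugars in the Golgi apparatus, is packed into granules and swells on release. In the small intestine the resulting layer is loose and is penetrated by bacteria more easily than the inner layer of the colon. Muc2 is the gel-forming mucin. Fcgbp, Zg16 and Clca1 are proteins secreted with it: Fcgbp is a large cysteine-rich mucus protein, Zg16 is a lectin-like protein that binds Gram-positive bacteria, and Clca1 is a secreted protease that acts on mucus. Tff3 is a trefoil peptide linked to epithelial repair, and Spink4 is a small Kazal-type protein of goblet granules. Agr2 is a protein disulfide isomerase of the endoplasmic reticulum that mucin production needs. Spdef is a transcription factor of goblet cell maturation. Muc13 is a mucin anchored in the cell membrane and, unlike the others, is also known from absorptive enterocytes.

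Promoter sequences, defined as 250 bases before to 50 bases after a gene's start, were available in RefSeq (GRCm38.p6) for 5 of the 9 members. Those of Muc2 and Fcgbp are shown because Fcgbp had the highest Pearson r with Muc2 between libraries of one diet (0.671, with an r of 0.442 when 2 libraries were left out), and that of Agr2 because Agr2 was the member that passed the test between diets. All 3 lie on the plus strand, at chr7:141690090-141690389 for Muc2, chr7:28070986-28071285 for Fcgbp and chr12:35992675-35992974 for Agr2. Capitals mark matches to the motifs described after the sequences.
Muc2: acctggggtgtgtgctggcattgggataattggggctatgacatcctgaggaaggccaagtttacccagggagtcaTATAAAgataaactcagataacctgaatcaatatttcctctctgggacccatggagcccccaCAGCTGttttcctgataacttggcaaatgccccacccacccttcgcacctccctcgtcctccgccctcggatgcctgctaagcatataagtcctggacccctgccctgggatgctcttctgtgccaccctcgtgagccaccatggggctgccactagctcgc
Fcgbp: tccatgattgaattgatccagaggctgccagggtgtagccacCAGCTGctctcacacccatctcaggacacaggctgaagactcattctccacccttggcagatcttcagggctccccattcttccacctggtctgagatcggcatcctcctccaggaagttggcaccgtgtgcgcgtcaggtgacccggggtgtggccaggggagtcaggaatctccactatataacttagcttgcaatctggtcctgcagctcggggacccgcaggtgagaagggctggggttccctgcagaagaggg
Agr2: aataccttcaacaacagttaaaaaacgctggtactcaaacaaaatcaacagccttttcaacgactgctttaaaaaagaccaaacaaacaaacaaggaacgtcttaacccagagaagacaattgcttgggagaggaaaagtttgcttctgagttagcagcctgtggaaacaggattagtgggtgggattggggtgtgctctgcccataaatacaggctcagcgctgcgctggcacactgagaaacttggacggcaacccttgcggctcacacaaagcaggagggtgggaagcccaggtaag

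Each window was searched on both strands for 6 short motifs. They were TATAAA (the TATA box), CAGCTG (an E-box that basic helix-loop-helix factors can bind), CCGGAT (the core that Spdef, an Ets factor, can bind), TGTTTAC (bound by forkhead factors), CCACG (part of the unfolded protein response element) and GTTAAT (part of the HNF1 site). Of 32851 mouse promoters of the same length, 13.6%, 16.3%, 6.04%, 3.65%, 32.8% and 7.1% held them, in that order. The Muc2 window held TATAAA 174 bases and CAGCTG 112 bases before the start. The Fcgbp window held CAGCTG 208 bases before the start. The windows of Agr2 and Spdef held none of the 6 in these letters. RefSeq gave 2 starts for Muc13, and of their windows the second held CCACG 86 bases and GTTAAT 61 bases before its start. A match of this kind is a description of the letters only.

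Total counts per library were between 14530137 and 19850935. The authors' FPKM are counts scaled to gene length and to library size. A few libraries stood apart from their group by marker genes of other organs. Summed pancreatic acinar markers reached 161 in duodenum control 3 and 69.5 in duodenum fructose 3, against 7.94 to 14.7 in the other duodenum libraries, and Alb (serum albumin, made by hepatocytes) reached 125.5 in duodenum control 5, all in CPM, counts scaled to library size, with the TMM factors by which edgeR corrects for library composition. By the sum of all 6 hepatocyte markers the highest control library of duodenum was control 3, at 2790 CPM, and not control 5. These 3 duodenum libraries were left out in a repeat of each count. So were liver dextrose 5 and control 2, which stood apart by their cell cycle genes, among other markers given below. Both choices were made after the data were seen. Liver control 5, with acinar markers at 541 CPM, was kept in that repeat and was left out only singly. Markers of gastric surface cells, which share the trefoil and mucin families, were at 0 in every duodenum library, and those of Brunner's glands, the mucous glands of the duodenal wall, summed to 0.238 to 12.1.

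The members were among the abundant transcripts of the duodenum. Together they took a median of 1.24% of all counts in the control libraries, 1.29% in dextrose and 1.35% in fructose, with ranges of 0.949% to 1.40%, 1.16% to 1.57% and 1.29% to 1.53%, which overlapped. The largest part of this share was Muc13, which is also known from enterocytes. Its mean was 3771 TMM-scaled CPM in control, 5894 in dextrose and 5029 in fructose. By the authors' FPKM over all 15 duodenum libraries, Zg16 was highest, with a median of 4234 and a range of 3806 to 4917. Tff3 followed at 2381 (1969 to 2942), and Muc13 at 1573 (928.1 to 2495). No Zg16 value was within the range of Tff3, whereas the ranges of Tff3 and Muc13 overlapped.

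The secreted gel proteins came next on the FPKM scale. Fcgbp had a median of 695.8 FPKM (423.0 to 885.8), Clca1 549.8 (358.4 to 801.7), Spink4 528.9 (369.7 to 661.0) and Muc2 360.3 (206.1 to 467.2). These 4 ranges overlapped, but within every duodenum library Fcgbp and Clca1 were each above Muc2. Other orders changed between libraries. Spink4 was below Muc2 in fructose 5 (369.7 against 467.2), and Fcgbp was below Clca1 in fructose 3 (695.8 against 801.7). Agr2 was lower at 157.0 FPKM (119.8 to 211.1), and the transcription factor Spdef was lowest at 8.642 FPKM (6.37 to 12.52).

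The order of the middle genes depends on the gene length used. The deposited FPKM imply a length of 1284 bases for Muc2, 1515 for Clca1 and 4348 for Fcgbp, while their longest GENCODE M21 transcripts have 2926, 3655 and 7928 bases. Per kilobase of the longest transcript, Muc2 had a median of 158.1 CPM, close to the 146.4 of Agr2, and Spink4 (413.0) came before Fcgbp (381.6) and Clca1 (227.9). Zg16, Tff3 and Muc13 stayed the 3 highest and Spdef the lowest by either length.

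Fructose against dextrose, which compares the simple sugars with each other, was the comparison in which a member passed the test. Agr2 was higher in fructose in every library. Its TMM-scaled CPM were 171.8, 162.2, 146.7, 162.3 and 144.4 on fructose and 118.5, 104.6, 128.2, 112.4 and 109.7 on dextrose. The lowest fructose library was above the highest dextrose library, and the control libraries, at 116.8, 128.5, 124.4, 136.0 and 149.4, lay between and overlapped with both. The difference on the log2 scale was 0.46 ± 0.085 (SE, n = 5 against 5), or 1.37-fold, with an adjusted p of 0.00425 by edgeR's quasi-likelihood test over all 13884 genes. The exact two-sided permutation p was 0.00794, the smallest that 5 against 5 libraries allow.

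Agr2 was 1 of 9 members past the threshold of 0.05 in this comparison, in which 3.64% of all genes passed in either direction and 2.17% passed as higher in fructose. Groups of libraries without overlap and higher in fructose were found for 3.38% of genes. Agr2 kept an adjusted p under the threshold in all 25 alternative analyses, 15 of which left out 1 library each, between 4.12e-06 and 0.0214, and had a log2 fold change of 0.48 ± 0.092 with an adjusted p of 0.0114 without the 3 libraries that stood apart. In bulk RNA, more goblet cells and more RNA per goblet cell cannot be told apart.

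Paneth cells, secretory cells of the crypt base, were looked at beside this result. Of their 8 markers none passed edgeR's test between fructose and dextrose, beside 3.64% of all genes. At an unadjusted p under 0.05 there was 1, beside 16.1% of all genes, and the median log2 difference of the 8 was 0.03. The summed Paneth markers ran from 410 to 3330 CPM on fructose, from 858 to 2770 on dextrose and from 1270 to 3240 in control. Of 8 enterocyte markers 1 passed between the sugars, beside 2.17% of all genes passing as higher on fructose. It was Fabp1, a fatty acid binding protein, higher on fructose by 0.76 ± 0.137 (adjusted p 0.00333). Of 7 enteroendocrine markers 1 passed, beside 1.48% of all genes passing as lower on fructose. It was the incretin gene Gip, which fell on fructose by 0.41 ± 0.085 (0.0106). The summed enterocyte markers ran from 25300 to 36900 CPM on fructose and 24800 to 29100 on dextrose, and the enteroendocrine sums from 267 to 362 and 333 to 409. The part of these cell types in the Agr2 difference was not tested.

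**Figure D1:**
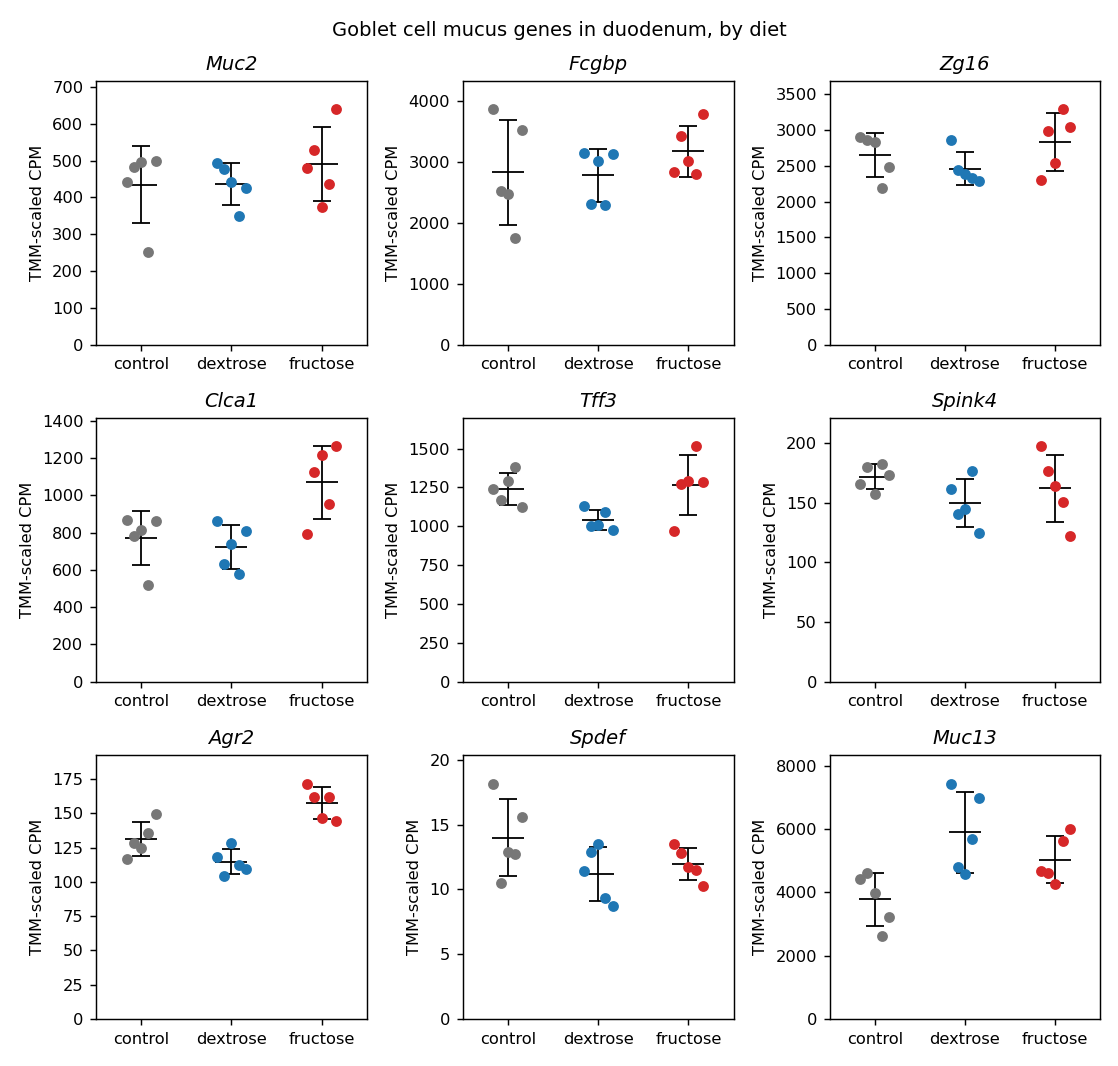
TMM-scaled CPM of the 9 members in each of the 15 duodenum libraries (points, 5 per diet) with the mean and SD (bars); each panel has its own axis from 0. The Agr2 points on fructose, 144.4 to 171.8, lie above all dextrose points, 104.6 to 128.2, whereas the points of the other members overlap between each pair of diets.

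Clca1 was the secreted mucus protein with the largest log2 difference between the sugars. Its TMM-scaled CPM were 789.8, 1126, 1214, 953.7 and 1262 on fructose, 862.0, 633.5, 739.9, 575.7 and 808.0 on dextrose, and 867.6, 781.0, 816.1, 516.8 and 863.7 in control. Of the 5 fructose libraries, 4 were above every dextrose and every control library, and the first was within their range. The log2 fold change of fructose against dextrose was 0.56 ± 0.157 (SE), with an adjusted p of 0.0561, which misses the threshold. Without fructose 1 the value was 0.65 with an adjusted p of 0.0233, and without control 4 it was 0.57 with 0.019, while without the 3 libraries that stood apart it was 0.51 with 0.194.

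Tff3 showed the same order on a smaller scale. Its TMM-scaled CPM were 969.2, 1273, 1293, 1514 and 1282 on fructose, 1129, 1002, 1008, 1092 and 975.9 on dextrose, and 1243, 1167, 1291, 1381 and 1123 in control. Fructose 1 was the lowest of all 15 libraries, and the other 4 fructose libraries were above every dextrose library. Fructose against dextrose gave a log2 fold change of 0.28 ± 0.105 with an adjusted p of 0.166. Without fructose 1 it was 0.36 with an adjusted p of 0.0322, the only 1 of 25 alternatives in which Tff3 passed. Without the 3 libraries that stood apart it was 0.27 with an adjusted p of 0.363.

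The gel mucin itself did not pass. Muc2 had TMM-scaled CPM of 479.4, 527.6, 374.3, 436.1 and 639.1 on fructose and 492.0, 477.3, 441.6, 348.1 and 424.7 on dextrose. These ranges overlapped, and the log2 fold change was 0.17 ± 0.172 with an adjusted p of 0.708. Fcgbp (0.19 ± 0.178, adjusted p 0.673), Zg16 (0.20 ± 0.114, 0.409), Spink4 (0.11 ± 0.116, 0.708) and Spdef (0.10 ± 0.155, 0.828) were likewise short of the threshold. Muc13 was the one member with a log2 value below 0, at -0.23 ± 0.169 with an adjusted p of 0.570. In all, 8 of the 9 log2 fold changes were above 0, with a median of 0.19 against -0.01 for all genes tested.

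Against the control diet no member passed edgeR's test for fructose, while 6.71% of all genes did. Unadjusted p-values were under 0.05 for 3 of the 9 members and for 19.3% of all genes. DESeq2 called 2 members, Agr2 (adjusted p 0.0218) and Clca1 (0.0407). The share of all genes that DESeq2 called in this comparison is not given here, so its count of members cannot be set beside one. The log2 fold change of Agr2 was 0.27 ± 0.085 with an adjusted p of 0.0719, and all 5 fructose libraries were above the control mean of 131 CPM. For Agr2 the adjusted p was 0.0414 without control 5, the highest control library, and 0.140 without the 3 libraries that stood apart.

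Clca1 had a log2 fold change of 0.48 ± 0.157 with an adjusted p of 0.0823 for fructose against control. It was 0.57 with 0.0342 without fructose 1, and 0.52 with 0.264 without the 3 libraries that stood apart. Clca1 passed in 3 of 25 alternatives of this comparison. Muc13 was at 0.42 ± 0.169 with an adjusted p of 0.173. The log2 fold changes of Muc2 (0.18 ± 0.172), Fcgbp (0.17 ± 0.178), Zg16 (0.09 ± 0.114) and Tff3 (0.03 ± 0.105) lay at or near 1 SE from 0 or closer, and those of Spink4 (-0.08 ± 0.116) and Spdef (-0.22 ± 0.155) were below 0. The median over the 9 was 0.17, against -0.02 for all genes tested.

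Dextrose against control gave no member past the threshold with edgeR, with 2.25% of all genes passing. Unadjusted p-values were under 0.05 for 3 members and for 10.8% of all genes. DESeq2 called 1 member, and 520 genes in all where edgeR called 312. Muc13, the membrane mucin, was nearest. Its TMM-scaled CPM were 7432, 4788, 4565, 5694 and 6989 on dextrose, 4433, 4623, 3972, 2612 and 3214 in control, and 4680, 4595, 4254, 5624 and 5994 on fructose. Of the dextrose libraries 4 were above every control library, and the third lay below the highest control library.

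The log2 fold change of Muc13 for dextrose against control was 0.64 ± 0.17, or 1.56-fold, with an adjusted p of 0.0578. The value crossed the threshold in 8 of 25 alternatives, DESeq2 among them with 0.0114, and was 0.60 with an adjusted p of 0.319 without the 3 libraries that stood apart. It also crossed without dextrose 2 (adjusted p 0.0471), dextrose 3 (0.0444) or control 2 (0.0491).

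Most other members had values below 0 on dextrose. Of the 9 log2 fold changes 7 were below 0, with a median of -0.11 against -0.01 for all genes tested. Tff3 was at -0.25 ± 0.105 (adjusted p 0.345), Agr2 at -0.19 ± 0.085 (0.399), Spdef at -0.32 ± 0.155 (0.470) and Spink4 at -0.20 ± 0.116 (0.623). All 5 dextrose libraries were below the control mean for Tff3, Agr2 and Spdef, though each group overlapped with control. The 3 comparisons share libraries: fructose and dextrose were each set against the same 5 controls, so their directions are not independent of one another.

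**Figure D2:**
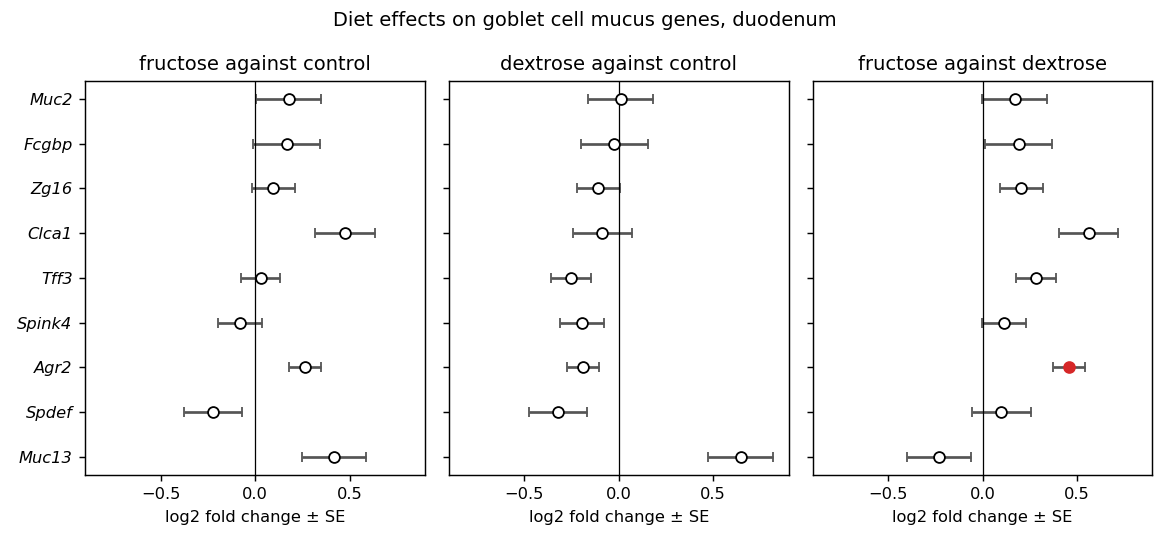
Log2 fold change (points) with its SE (bars) for the 9 members in the 3 duodenum comparisons, from edgeR; filled points passed an adjusted p of 0.05. One point is filled, Agr2 in fructose against dextrose at 0.46, and Muc13 in dextrose against control, at 0.64, is the point farthest from 0.

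The remaining members overlapped between all 3 diets. Spdef, the transcription factor, had TMM-scaled CPM of 13.51, 12.80, 11.76, 11.52 and 10.25 on fructose, 11.41, 12.89, 13.54, 9.355 and 8.73 on dextrose, and 18.18, 10.53, 12.88, 12.72 and 15.63 in control, where the first library was highest of all 15. Spink4 had 197.1, 176.4, 163.9, 150.7 and 122.1 on fructose, 161.6, 140.7, 145.0, 176.3 and 124.8 on dextrose, and 165.6, 180.1, 156.9, 182.2 and 173.0 in control. The fructose libraries of Spink4 covered the whole range of both other diets. Zg16 had 2296, 2991, 2545, 3292 and 3050 on fructose, 2858, 2443, 2386, 2334 and 2282 on dextrose, and 2911, 2859, 2831, 2192 and 2478 in control, with 3 fructose libraries above every other library. Fcgbp had 2846, 3437, 3025, 2800 and 3787 on fructose, 3148, 2317, 3020, 2302 and 3134 on dextrose, and 3869, 2530, 2480, 1751 and 3521 in control, so that both its lowest and its highest value came from control.

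Between libraries of one diet the members did not vary as a single block. Each member was compared with Muc2 over the 15 duodenum libraries on log2(CPM + 1) values centred within diet, which gave 8 pairs. Pearson's r was 0.671 for Fcgbp and 0.651 for Clca1, each with an adjusted p of 0.0344 in a two-sided permutation test with 100000 resamples. Spearman's rho was 0.536 and 0.475, each with an adjusted permutation p of 0.211. The permutations shuffled the centred values across all 15 libraries and did not allow for the centring by diet. The permutation p-values given for these 8 pairs may therefore be too small. Control 4 had the lowest value of both Muc2, at 251.9 CPM, and Fcgbp, at 1751 CPM.

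Leaving out the libraries farthest from the Muc2 median, control 4 and fructose 3, gave an r of 0.442 for Fcgbp and 0.667 for Clca1. For Zg16 r fell from 0.567 (adjusted permutation p 0.0693) to 0.273, and for Muc13 from 0.532 (0.0762) to 0.148, so that those relations rest on these libraries. Fcgbp and Clca1 had an r of 0.826 with each other, as a description.

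The remaining members had a lower r with Muc2. Their r with Muc2 was 0.139 for Spdef, -0.0833 for Agr2, -0.326 for Tff3 and -0.389 for Spink4, with adjusted permutation p-values from 0.245 to 0.772. Spearman's rho for these 4 lay between -0.329 and 0.104, and r without the same pair of libraries between -0.457 and 0.0542. With members other than Muc2 the picture was mixed. Tff3 had an r of 0.509 with Zg16 and -0.228 with Fcgbp, and Spdef had 0.348 with Fcgbp and -0.365 with Muc13. Agr2 and Spink4 had an r of 0.46 with each other. All these values come from libraries that share scaling factors, and RNA amounts of one library move together for many reasons that were not tested.

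**Figure D3:**
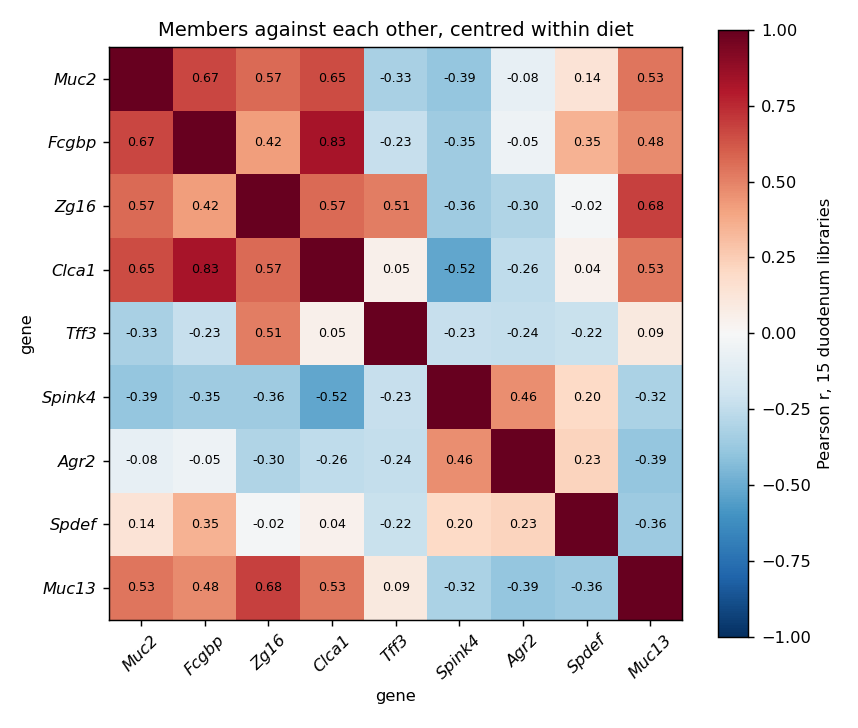
Pearson r between each pair of members over the 15 duodenum libraries, on log2(CPM + 1) values centred within diet; both axes list the genes and colour runs from -1 (blue) to 1 (red). Muc2, Fcgbp, Zg16, Clca1 and Muc13 have values above 0 with one another, up to 0.83 for Fcgbp and Clca1, and Spink4 has values below 0 with each of these 5.

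Outside the list, the genes most like the members were sought by the r of each gene with the mean z-score of the members over the same 15 libraries. Of 11675 genes averaging 1 CPM or more, the highest were Tm7sf3 (0.868), Slc35f6 (0.823), Mapkap1, Atp6v1a and Mxra7 (0.818 each). Without the 3 libraries that stood apart these values were between 0.825 and 0.872. The top of so many genes is high by selection, so the values only describe the order. The members' own r with that mean, which contains them, was 0.784 for Fcgbp, 0.774 for Zg16, 0.729 for Clca1, 0.698 for Muc2 and 0.566 for Muc13, and 0.34 or less for the other 4.

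Further genes of goblet cells did not pass in any duodenum comparison. The list held 24 genes, among them the transcription factors Atoh1, Gfi1 and Foxa1 to Foxa3 and the endoplasmic reticulum stress sensor Ern2, and 23 were tested. The count was 0 of 23 in each comparison with edgeR, and 1, 2 and 1 with DESeq2 for fructose against control, dextrose against control and fructose against dextrose. At an unadjusted p under 0.05 the counts were 3, 6 and 3. Over all genes 6.71%, 2.25% and 3.64% passed with edgeR, and 19.3%, 10.8% and 16.1% had an unadjusted p under 0.05. For dextrose against control and fructose against dextrose, DESeq2 called 520 and 826 genes, where edgeR called 312 and 506. Its number for fructose against control is not given here. The median log2 fold change of the 23 genes was -0.05, -0.18 and 0.15. The summed level of the goblet list had medians of 1000 CPM on fructose, 1020 on dextrose and 1030 in control. Of 5 tested genes among other mucins and mucin-like proteins none passed with edgeR. At an unadjusted p under 0.05 there were 1, 2 and 1, beside the same edgeR shares of all genes. DESeq2 called 0, 1 and 1 of the 5. The summed level of that list ran from 2010 to 2630 CPM on fructose, 2820 to 3690 on dextrose and 1790 to 3110 in control. The median log2 fold change of the 5 tested genes was -0.19 for fructose against dextrose. A sum follows its most abundant genes, so these ranges do not describe the list as a whole.

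Enzymes that build the O-linked sugars of mucins did differ between diets, some up and some down. Of 26 tested, 5 rose and 2 fell on fructose against control, beside 4.01% and 2.7% of all genes. This list, like the others here, was chosen with earlier results of these data known, so such counts are a description only. B4galnt3, which adds N-acetylgalactosamine to glycan chains, had TMM-scaled CPM of 66.41, 75.99, 96.66, 83.88 and 80.19 on fructose, 66.52, 70.70, 71.05, 75.29 and 75.47 on dextrose, and 36.87, 30.04, 47.44, 42.99 and 49.99 in control. Every library on either sugar was above every control library, a pattern found for 4.15% of all genes on fructose and 1.78% on dextrose. The log2 fold change was 0.96 ± 0.125 for fructose (adjusted p 0.000104) and 0.79 ± 0.124 for dextrose (0.00160), and it passed in all 25 alternatives of each.

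Galnt7, one of the transferases that act early in O-glycosylation, rose on fructose against control by 0.70 ± 0.141 (adjusted p 0.00464), from 51.4 to 79.2 CPM in control to 91.6 to 107 on fructose. St6galnac2, a sialyltransferase, fell by 0.40 ± 0.088 (0.00889) on fructose and fell by 0.36 ± 0.088 (0.0365) on dextrose. The St6galnac2 libraries ran from 56.2 to 68.6 CPM in control, 44.4 to 51.0 on fructose and 41.0 to 57.9 on dextrose, so fructose lay below control without overlap, as did 2.92% of all genes. The other genes past the threshold on fructose against control were Galnt3, Galnt4 and C1galt1, which rose, and Galnt10, which fell. Without the 3 libraries that stood apart the count was 2 of 26, with B4galnt3 as the rise and St6galnac2 as the fall. Galnt7 had a log2 fold change of 0.56 there with an adjusted p of 0.114. In that repeat 329 genes passed in all, where 932 passed with every library. Leaving out fructose 2 alone gave 3 of the 26, and leaving out fructose 3, 4 or 5 or control 5 gave 4 each. B4galnt3 and St6galnac2 passed for fructose in all 25 alternatives.

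On dextrose against control, 1 of the 26 enzymes rose and 1 fell, B4galnt3 and St6galnac2, beside 1.15% and 1.09% of all genes. Between the sugars, C1galt1, the enzyme that makes the core 1 structure, rose on fructose by 0.43 ± 0.114 with an adjusted p of 0.0453, but it passed in 9 of 25 alternatives, and its adjusted p was 0.091 without the 3 libraries that stood apart. St6galnac2 passed for dextrose in 10 of 25. C1galt1 and Galnt7 are expressed in many epithelial cell types as well as goblet cells, and bulk libraries do not tell which cells carry the difference.

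**Figure D4:**
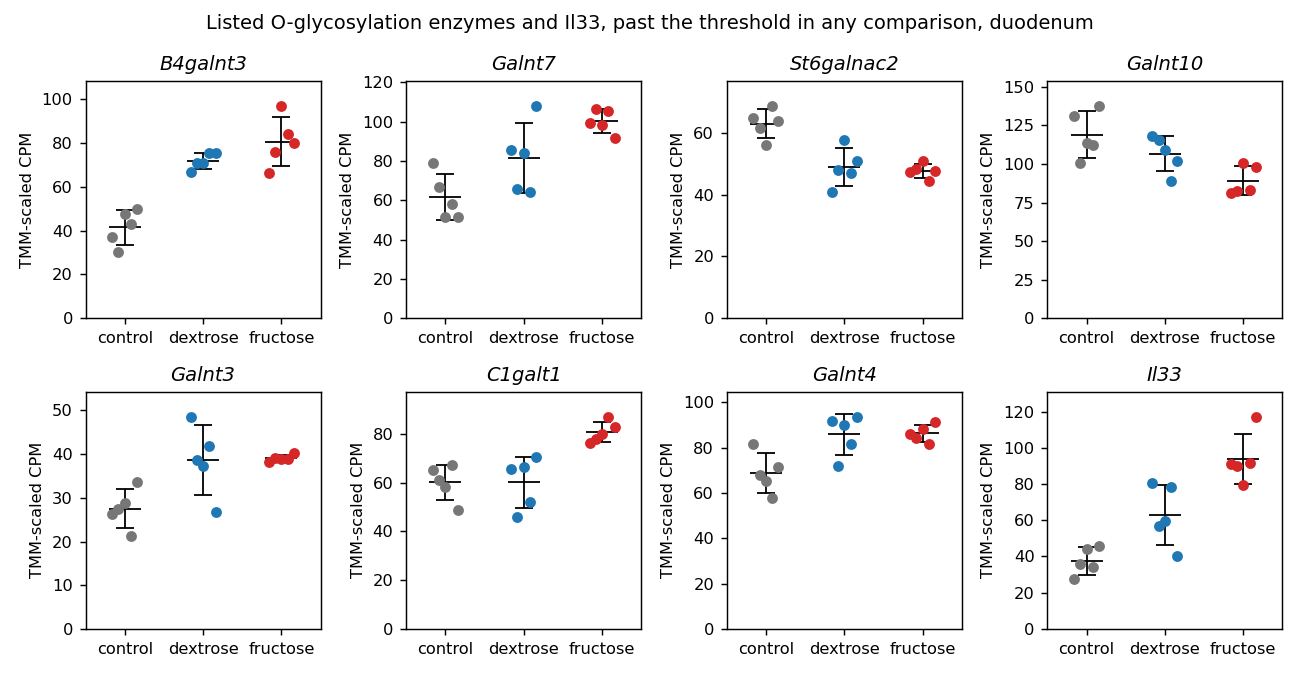
TMM-scaled CPM in each duodenum library (points, 5 per diet) with mean and SD (bars) for the 7 O-glycosylation enzymes that passed in any comparison and for Il33, each panel with its own axis from 0. The control points of B4galnt3, 30.04 to 49.99, lie below all fructose and dextrose points, and the Il33 points on fructose, 79.6 to 117, lie above all control points and overlap with the highest dextrose point, 80.37.

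Among 17 tested genes of mucus release, hydration and processing, 1 rose and 1 fell on fructose against control, beside 4.01% and 2.7% of all genes. Myo5b, a myosin of apical vesicle traffic, rose by 0.43 ± 0.101 (adjusted p 0.0134). Mep1b, a subunit of the protease meprin, which in mouse detaches mucus from the small intestine, fell by 0.52 ± 0.127 (0.0188). Against dextrose, 1 of the 17 rose and 2 fell, beside 2.17% and 1.48% of all genes. Mep1b fell on fructose by 0.56 ± 0.127 (0.0174), Cftr, the chloride and bicarbonate channel that hydrates mucus, fell by 0.67 ± 0.162 (0.0280), and the kallikrein Klk1 rose by 0.66 ± 0.165 (0.0320). None of the 17 passed on dextrose against control with edgeR, beside 2.25% of all genes. At an unadjusted edgeR p under 0.05 there were 4, beside 10.8% of all genes. DESeq2 called 1 of the 17 in that comparison, and 520 genes in all. Without fructose 2, fructose 3 or dextrose 1 the count between the sugars was 0, and without dextrose 2 or 4 it was 1. Against control it was 1 without fructose 2 or 3, where Mep1b no longer passed. Without the 3 libraries that stood apart 0 of the 17 passed in each of the fructose comparisons, with adjusted p of 0.149 for Myo5b, 0.130 and 0.0955 for Mep1b, 0.0876 for Cftr and 0.129 for Klk1. In that repeat 329 genes passed in all against control and 274 between the sugars, where 932 and 506 passed with every library. The log2 fold changes were 0.41 for Myo5b, -0.51 in both comparisons for Mep1b, -0.61 for Cftr and 0.63 for Klk1.

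Il33, an alarmin cytokine that can drive goblet cell expansion through type 2 immunity, rose on both sugars. Its TMM-scaled CPM were 91.28, 89.71, 79.61, 91.45 and 116.9 on fructose, 80.37, 56.58, 59.45, 78.12 and 40.21 on dextrose, and 27.55, 36.11, 44.24, 34.16 and 46.04 in control. The fructose libraries were all above the control libraries and overlapped with the dextrose libraries (0.58 higher on fructose on the log2 scale, adjusted p 0.0813). The log2 fold change against control was 1.32 ± 0.178 on fructose (adjusted p 0.000170), which passed in all 25 alternatives, and 0.74 ± 0.176 on dextrose (0.0335), which passed in 15 of 25. It was the only one of 5 tested genes of that list to pass, beside 6.71% of all genes on fructose and 2.25% on dextrose. Il5, Il9, Il10, Il13 and Il22 had a median of 0 CPM on each diet in duodenum.

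Markers of other epithelial cells moved in the same comparisons with control as Il33 and the O-glycosylation enzymes. Of 8 enterocyte markers, 1 rose and 2 fell on either sugar. Of all genes 4.01% rose and 2.7% fell on fructose, and 1.15% rose and 1.09% fell on dextrose. Sis, the brush border sucrase-isomaltase, rose by 0.89 ± 0.114 on fructose (adjusted p 8.99e-05) and by 0.52 ± 0.113 on dextrose (0.0189). Fabp2, a fatty acid binding protein, fell by 1.08 ± 0.188 (0.00165) and by 1.25 ± 0.188 (0.00122). Apoa4, an apolipoprotein of fat absorption, fell by 0.71 ± 0.17 (0.0156) and by 0.72 ± 0.17 (0.0312). Of 6 tuft cell markers, 1 rose on fructose, the ion channel gene Trpm5, by 0.94 ± 0.191 (0.00535). The summed enterocyte markers of control, 28400 to 32500 CPM, overlapped with those of both sugars. The tuft sums, which contain Trpm5, ran from 36.4 to 44.5 CPM in control, 45.2 to 59.3 on fructose and 37.1 to 55.5 on dextrose. The median log2 fold change of the 6 tuft markers against control was below 0, at -0.22 on fructose and -0.13 on dextrose. The higher tuft sums on fructose therefore do not describe a rise of the list as a whole. The part of these cell types in the Il33 and enzyme differences was not tested.

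In liver the mucus genes were low, as a reference for the tissue difference. For all 9 members, all 15 duodenum libraries were above all 15 liver libraries, which held for 15.4% of 27724 genes with a count. Only Tff3, Fcgbp and Zg16 passed the liver filter among 13178 genes. Agr2 had 0 counts in 12 of 15 liver libraries and 4 counts in all. Muc2, Clca1 and Spdef had at most 4 counts in any liver library, with 18, 16 and 19 over the 15. Counts this low are near the 3 counts that define a floor for detection.

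Tff3 was the exception in level. It ran from 8.863 to 176.7 CPM of total counts in liver, with 145.9 TMM-scaled CPM in dextrose 5 and 68.13 in control 2, against 9.366 to 44.90 in the other 13 libraries. Dextrose 5 and control 2 also had the highest summed cell cycle genes of liver, 144 and 131 CPM, where the others had 3.90 to 9.37. Each was also the highest of its own diet for fibroblast (379 and 272 CPM), macrophage (346 and 245) and cholangiocyte markers (98.6 and 66.0). On fructose the highest sums of these 3 lists were 62.3, 184 and 54.5. Zg16 was at 25.39 TMM-scaled CPM in dextrose 5 and 19.10 in control 5, and at 5.115 or less elsewhere. Those same libraries had the highest pancreatic acinar sums of liver, 1080 and 541 CPM, and Zg16 is known in rat from zymogen granules of the pancreas. Their part in the result was not tested.

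**Figure D5:**
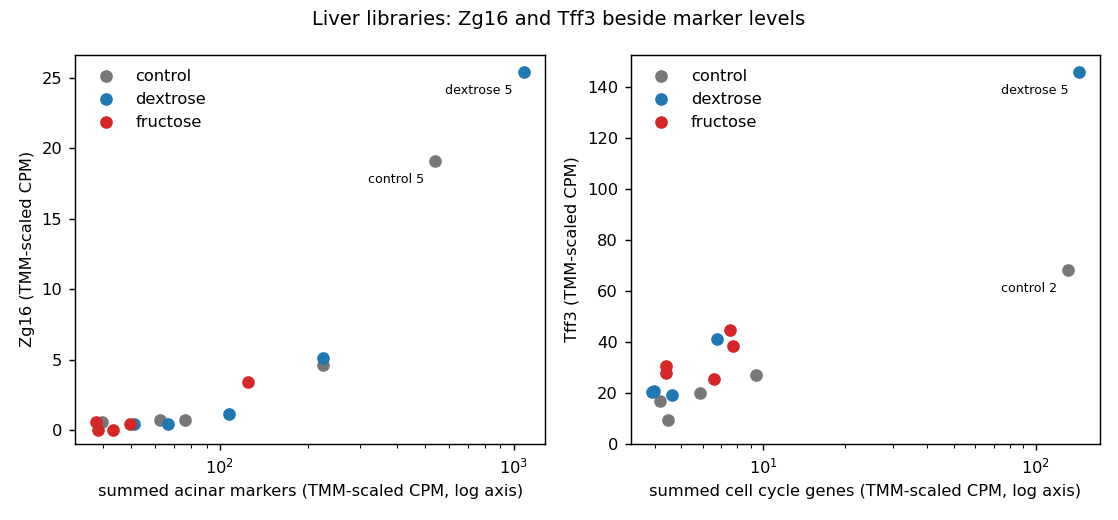
Left, Zg16 against the summed pancreatic acinar markers, and right, Tff3 against the summed cell cycle genes, in the 15 liver libraries (points, 5 per diet), all in TMM-scaled CPM with a log x axis. Dextrose 5 and control 5 have the 2 highest Zg16 values, 25.39 and 19.10, and the 2 highest acinar sums; dextrose 5 and control 2 have the highest Tff3 values and cell cycle sums.

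None of the 3 tested members passed in liver in any diet comparison with edgeR, where 0.258% of genes passed for fructose against control, 0.0% for dextrose against control (4.2% at an unadjusted p under 0.05, and 1 gene by DESeq2) and 0.0759% for fructose against dextrose. No member had an unadjusted p under 0.05 in any of them. Without dextrose 5 and control 2, the log2 fold change of Tff3 for fructose against dextrose was 0.41, from -0.57 with them.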

How the data were processed

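Raw read counts per Ensembl gene and FPKM were deposited by the authors for 30 libraries. The submitters' processing notes name TopHat2 2.0.12, Bowtie2 2.2.3, HTSeq 0.6.1 and DESeq 1.18.0; build and annotation are not given in the sources used here. The kit's strand setting is not stated, so antisense reads cannot be separated. Deposited FPKM equalled count divided by length and total within 0.001 for 100% of values. Members and gene lists were chosen with earlier results of these data known. Counts were tested with edgeR 4.0.16 in R 4.3.3, per tissue over 15 libraries in 3 diets, with filterByExpr, TMM and the robust quasi-likelihood F test, adjusted by Benjamini-Hochberg over all tested genes at 0.05. Genes named were the 9 members, the 3 smallest p per list and comparison among called list genes, and the 5 genes most like the members. Other called O-glycosylation genes were named after their values were seen, since they complete the count of 7, as were markers of other cell types that passed. Alternatives were other filters, upper-quartile or RLE factors, DESeq2 1.42.0, limma 3.58.1 on log2(FPKM + 1) and log2(FPKM + 0.1), 2 diets alone, a replicate block and leaving libraries out. Replicates differed beyond counting noise.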

Additional observations from a re-analysis of the deposited data

Results flagged for a closer look

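Among 40 combinations of member and group, 8 had a library far from the other 4; chance gives about 1 in 20. Values are TMM-scaled CPM. Duodenum control 4 was lowest for Muc2 (251.9) and Clca1 (516.8). Duodenum dextrose 1 was highest for Zg16 (2858). In liver, Zg16 was highest in fructose 5 (3.425), dextrose 5 (25.39) and control 5 (19.10), Tff3 in dextrose 5 (145.9) and Spink4 in fructose 5 (1.422). Summed acinar markers in those 3 liver libraries, each the highest of its own group for Zg16, were 125, 1080 and 541 CPM, also the highest of each group.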

How the results depend on the processing

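Agr2 in fructose against dextrose passed in all 25 alternatives, with log2 fold changes from 0.41 to 0.51. Member counts differed from the main 0, 0 and 1 (fructose against control, dextrose against control, fructose against dextrose) as follows. DESeq2 gave 2, 1 and 2. For dextrose against control, limma, upper-quartile factors and a fit with no low-count filter each gave 1. Fitting only the diets compared gave 2 for fructose against dextrose. Between diets of one tissue, replicate numbers gave no clear sign of pairing (same-number r from -0.511 to 0.544, at most 2 of 5 best with their own number). Pairing is not excluded by this, and the numbers were not compared between tissues. The replicate block gave 1 for fructose against control and 2 for fructose against dextrose. Leaving out one library gave 0 to 1, 0 to 1 and 1 to 3 members.

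Genes called in duodenum were 932, 312 and 506. DESeq2 gave 520 for dextrose against control and 826 for fructose against dextrose; without the 3 libraries apart the counts were 329, 163 and 274, and leaving out one library gave 623 to 1008, 185 to 330 and 310 to 574. Upper-quartile factors gave 480 higher and 508 lower for fructose against control, where the main split was 557 and 375, and 282 and 329 for fructose against dextrose, where it was 301 and 205; limma on log2(FPKM + 1) gave 436 and 641, and 278 and 395. In liver the main counts were 34, 0 and 10. DESeq2 gave 232, 1 and 143; no filter gave 16 for fructose against dextrose; fitting only the diets compared gave 14 and 46 for the fructose comparisons, the replicate block 4 and 0, and leaving out both libraries apart 225 and 250. Leaving out one library gave 6 to 62, 0 to 0 and 3 to 31. The cause was not tested.

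Changes of sign were limited to log2 values that had not passed. For fructose against control, Tff3 was -0.0087 with upper-quartile factors, -0.047 with limma at either pseudocount and -0.0049 without the 3 libraries; leaving out one library gave -0.041 to 0.11, and Spink4 -0.16 to 0.0048. For dextrose against control, Muc2 was -0.0014 with the stricter filter and -0.14 to 0.081 leaving out one library; Fcgbp was 0.0024 and 0.0025 with limma, 0.0082 with the replicate block, 0.034 without the 3 libraries and -0.16 to 0.11 leaving out one; Clca1 was 0.0024 without them. In liver, Zg16 for dextrose against control was -0.013 with the replicate block, -1.56 without the libraries apart and -1.51 to 1.95 leaving out one. Tff3 for fructose against dextrose was 0.41 without them and -0.76 to 0.41 leaving out one, and for dextrose against control -0.17 to 1.43. Fcgbp leaving out one was -0.096 to 0.59 for fructose and -0.45 to 0.047 for dextrose against control. The r of Muc2 with Agr2 was 0.165 and with Zg16 0.578 (adjusted permutation p 0.048) without centring by diet.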
